A study of Homo sapiens with 2 samples.

Results

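Of the 15064 ATF1 peaks listed for HCT116 cells, 2251 were assigned to a gene whose name begins with LINC or LOC followed by digits, leaving out names that end in -AS with or without a number. These comprised 247 LINC peaks and 2004 LOC peaks, and the other 12813 listed peaks served for comparison. The members were chosen by name alone, without use of tags, fold enrichment or position. HCT116 is an established human colon adenocarcinoma cell line. The cells received ATF1 carrying a 3xFlag tag, so the measured protein was the tagged and introduced one and not the endogenous factor alone. Chromatin was immunoprecipitated for the Flag tag in 1 library, without a replicate, and the matching input DNA library had no table used here. Every interval given below is therefore an exact 95% binomial (for shares) or Poisson (for tags) interval that covers counting error only, with no measure of biological variation and no test between conditions. No marker of the cell line can be read from a list of binding peaks.

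ATF1 belongs with CREB1 and CREM to the CREB family of leucine zipper factors, which bind as dimers to the cAMP response element (CRE), the palindrome TGACGTCA. It also binds the core of that element, TGACG, and its transactivating activity rises when protein kinase A or other kinases phosphorylate it. A LINC symbol is the approved name of a long intergenic non-protein-coding RNA, and a LOC symbol is a provisional name made from the gene's NCBI number, given to loci without an approved symbol. Many long non-coding RNAs start next to the start of a coding gene and run the other way, and such a pair shares one stretch of promoter.

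The promoter sequences that go with the results on the CRE are shown first. The RefSeq promoter table of GRCh38.p14 holds 300 bases for each listed start, 250 before it and 50 from it onward, and a window was found for 1368 members (60.8%). Below are 6 whole windows that hold the summit and a full CRE, followed by 1 strong peak's window in which neither the CRE nor its core was found. Each is written 5′ to 3′ on the strand of the LINC or LOC gene, and capitals mark TGACGTCA and each match of TGACG or its reverse complement CGTCA. LOC100506022, now LINC02606, lies at chr1:9428947-9429246 (minus strand), LOC100288069 at chr1:778585-778884 (minus strand), LOC105372692 at chr20:57718424-57718723 (plus strand), LOC105375216 at chr7:30134665-30134964 (minus strand), LINC00265 at chr7:39733318-39733617 (plus strand), LOC100506885, now LNC-LBCS, at chr6:19804710-19805009 (minus strand) and LOC101928414, now SLC28A2-AS1, at chr15:45279173-45279472 (minus strand).
LOC100506022: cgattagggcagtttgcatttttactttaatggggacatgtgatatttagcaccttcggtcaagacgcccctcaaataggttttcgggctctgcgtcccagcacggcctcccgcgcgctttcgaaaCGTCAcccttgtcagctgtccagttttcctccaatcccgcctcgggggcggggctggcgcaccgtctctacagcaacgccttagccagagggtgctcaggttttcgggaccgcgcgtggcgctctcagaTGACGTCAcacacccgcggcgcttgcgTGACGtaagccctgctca
LOC100288069: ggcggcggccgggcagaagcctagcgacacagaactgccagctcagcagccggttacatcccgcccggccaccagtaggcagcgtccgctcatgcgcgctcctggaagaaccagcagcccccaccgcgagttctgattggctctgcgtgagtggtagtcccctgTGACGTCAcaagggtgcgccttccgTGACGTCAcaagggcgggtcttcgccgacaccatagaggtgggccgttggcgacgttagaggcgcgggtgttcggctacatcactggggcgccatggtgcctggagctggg
LOC105372692: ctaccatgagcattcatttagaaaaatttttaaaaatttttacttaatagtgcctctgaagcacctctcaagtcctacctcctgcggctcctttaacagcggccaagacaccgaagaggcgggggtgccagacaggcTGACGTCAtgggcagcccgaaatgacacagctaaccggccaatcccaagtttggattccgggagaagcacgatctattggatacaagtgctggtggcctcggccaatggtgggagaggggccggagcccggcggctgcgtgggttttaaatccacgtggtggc
LOC105375216: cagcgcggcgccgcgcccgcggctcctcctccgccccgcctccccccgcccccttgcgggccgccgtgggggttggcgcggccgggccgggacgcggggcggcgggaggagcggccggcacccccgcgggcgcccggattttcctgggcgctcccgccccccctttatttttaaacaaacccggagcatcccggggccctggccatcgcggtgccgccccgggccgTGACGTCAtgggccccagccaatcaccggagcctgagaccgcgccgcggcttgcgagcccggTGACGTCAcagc
LINC00265: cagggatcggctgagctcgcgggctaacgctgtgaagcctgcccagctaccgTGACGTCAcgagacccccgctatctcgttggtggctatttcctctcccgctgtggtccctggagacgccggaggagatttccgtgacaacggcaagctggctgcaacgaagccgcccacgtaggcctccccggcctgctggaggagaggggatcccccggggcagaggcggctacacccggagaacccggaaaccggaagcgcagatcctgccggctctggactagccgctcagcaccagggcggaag
LOC100506885: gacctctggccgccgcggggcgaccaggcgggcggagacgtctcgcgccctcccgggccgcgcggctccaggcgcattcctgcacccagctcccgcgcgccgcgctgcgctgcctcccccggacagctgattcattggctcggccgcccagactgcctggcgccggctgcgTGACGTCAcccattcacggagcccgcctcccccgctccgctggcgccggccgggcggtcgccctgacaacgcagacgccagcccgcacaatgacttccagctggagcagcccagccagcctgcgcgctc
LOC101928414: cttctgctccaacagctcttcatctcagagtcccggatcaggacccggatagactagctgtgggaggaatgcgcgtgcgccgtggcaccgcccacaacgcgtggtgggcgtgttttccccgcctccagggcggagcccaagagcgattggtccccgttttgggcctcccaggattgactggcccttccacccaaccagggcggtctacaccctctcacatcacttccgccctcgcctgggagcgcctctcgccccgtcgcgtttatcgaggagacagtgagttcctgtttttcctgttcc

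For 6 more members with a CRE in the window and the summit near it, the 30 bases around the CRE are enough to show the bases that flank it. They are LOC101927478 (now NUP133-DT) at chr1:229508345-229508374 on the plus strand, LOC105372599 at chr20:34704272-34704301 on the minus strand, LOC101929285 (now SCUBE3-AS1) at chr6:35259445-35259474 on the minus strand, LOC105374889 at chr6:3157586-3157615 on the plus strand, LOC105370688 at chr14:103629127-103629156 on the minus strand and LOC107987126 at chr9:124771317-124771346 on the plus strand. Capitals have the same meaning as above, and the LOC105374889 stretch holds a further core match directly after the CRE.
LOC101927478: gcgcgcgatgaTGACGTCAaacgcaatggc
LOC105372599: acagctgattgTGACGTCAcaaaggggccc
LOC101929285: ggaaggcgtgcTGACGTCAcgacgcccggg
LOC105374889: gccctgcccggTGACGTCATGACGggcggg
LOC105370688: gcgcgccggcaTGACGTCAtcgcccctcgc
LOC107987126: gctccctccccTGACGTCAcacgccgctgc

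Peaks at LINC and LOC genes held fewer tags than the other peaks at nearly the same median fold enrichment. A tag is a sequenced fragment counted in the peak, and fold enrichment is the authors' ratio of the peak to a background that the sources do not specify. The median was 72 tags at members and 180 tags at the other peaks. Median fold enrichment was 6.91 at members (quartiles 5.38 and 8.92) and 6.98 at the other peaks (quartiles 5.14 and 9.97). Within the members, the median was 77 tags and 6.80-fold at LINC peaks, and 70.5 tags and 6.94-fold at LOC peaks. Median peak length was 1274 bp at members and 1591 bp at the other peaks. Here and below, a gene end is either boundary of a gene, its start or its far end, and these are pooled. Without a coding gene end within 1 kb of the summit, 1758 members had a median of 54 tags and 6.84-fold, against 72 tags and 6.37-fold at such other peaks, so there the gap in tags was smaller and the fold was higher at members. The median score, whose basis is not stated, was 97.3 at members and 172 at the other peaks.

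Of the members, 409 reached 10-fold enrichment, which is 18.2% (interval 16.6 to 19.8%), against 23.9% of all listed peaks and 24.9% of the other peaks. At 20-fold there were 69 members (3.07%, interval 2.39 to 3.86%), against 5.08% of all listed peaks and 5.44% of the other peaks. Members were thus a smaller part of the strong peaks than of the table, since they made up 14.9% of all peaks and 8.30% of the 1000 peaks of highest fold. The top 100 nevertheless held 10 members, and the highest fold of the table, 121.03, was a member's. Among LINC peaks 40 (16.2%) reached 10-fold and among LOC peaks 369 (18.4%), and the intervals of these shares overlap.

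The gap to the other peaks differed between classes of tags. Under 50 tags, 844 members (37.5%) had a median fold of 7.37 and 12.9% of them reached 10-fold; the corresponding 2266 other peaks (17.7%) also had a median of 7.37, and 12.4% reached 10-fold. From 50 to under 200 tags, 15.6% of 851 members (interval 13.2 to 18.2%) and 20.7% of 4666 other peaks (interval 19.6 to 21.9%) reached 10-fold. From 200 tags upward, 30.04% of 556 members and 33.1% of 5881 other peaks did so, with overlapping intervals. In the weakest class of tags the highest fold was 20 at members and 21.09 at the other peaks, so the strongest folds of both came from peaks with more tags. Across the 2251 members of this 1 library, Spearman's rho between tags and fold was -0.0901, but its sign differed with position. It was 0.240 over the 493 members with a coding gene end within 1 kb of the summit and -0.237 over the 1328 beyond 10 kb. Between tags and peak length rho was 0.895 over all members. No listed peak has a fold under 3 or a score under 50, and under 50 tags the lowest member fold was 3.35. How far such limits of the list shape these values of tags and fold was not tested.

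**Figure D1:**
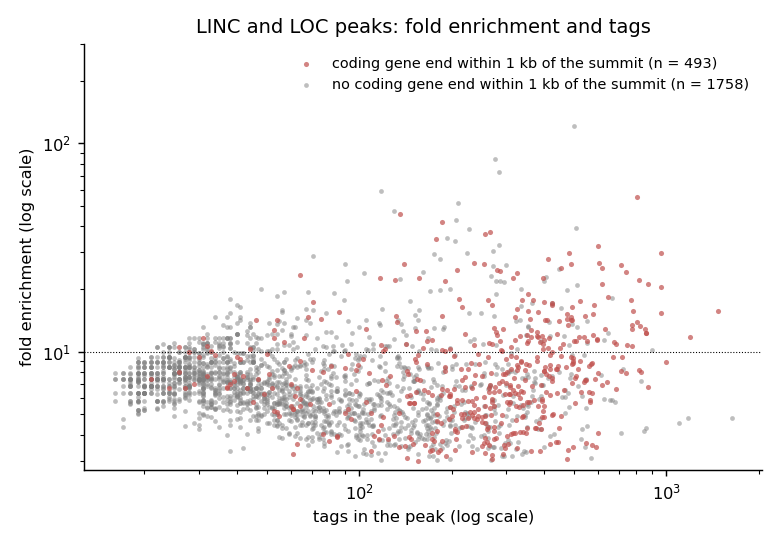
Fold enrichment (log scale) against tags in the peak (log scale) for the 2251 LINC and LOC peaks, 1 point per peak, with the 493 that have a coding gene end within 1 kb of the summit in their own colour; the dotted line marks 10-fold. Peaks near a coding gene end lie further to the right (median 276 tags), and the strongest peak stands at 121.03-fold with 502 tags.

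By the authors' classes, the summits of members lay mostly inside the gene and rarely in an exon. Introns held 67.8% of member peaks (1526; interval 65.8 to 69.7%) and 27.9% of the other peaks. Exons held 7.06% of member peaks (159; interval 6.04 to 8.20%) and 49.95% of the other peaks. The upstream class, within 2 kb of the gene, took 19.1% of members (429) and 20.03% of the other peaks, and the downstream class 6.09% of members (137) and 2.11% of the other peaks. A single LINC peak of 247 (0.405%) was called exonic, against 158 LOC peaks of 2004 (7.88%).

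Exon calls differed with the type of gene. Among members with a match in RefSeq, an exon was called for 58 of 1812 typed as long non-coding RNA (3.20%), for 18 of 48 transcribed pseudogenes (37.5%) and for 21 of 58 now typed as protein-coding (36.2%). Other peaks with antisense, MIR or SNOR names were likewise rarely called exonic, with 2 of 272 (0.735%). A summit called intronic lay within 50 bp inside the end of its own gene, where a first or last exon is usually annotated, for 92 of 1526 members (6.03%, interval 4.89 to 7.34%) and for 29 of 3576 other peaks (0.811%, interval 0.544 to 1.16%). LINC00467 is an example, called intronic with its summit 38 bp inside the gene's end. Whether exons of non-coding genes entered the annotation the authors used was not tested, and the class intron is used below only as a position inside the gene.

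**Figure D2:**
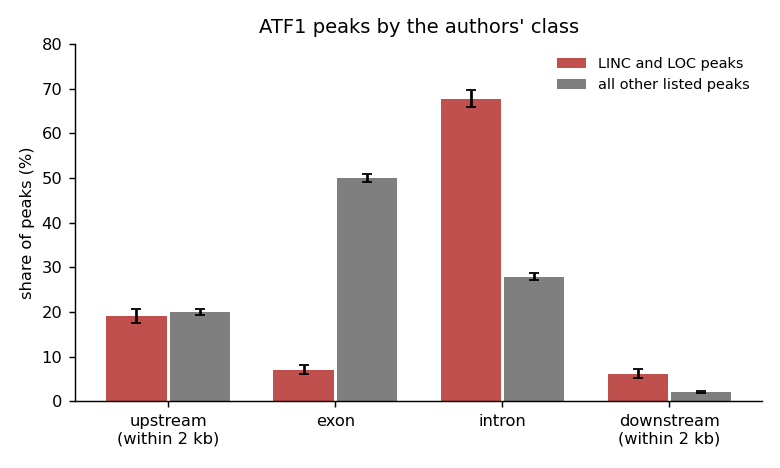
Share of peaks (%) in each of the authors' 4 classes for LINC and LOC peaks (2251) and for the other listed peaks (12813); bars are shares and error bars exact 95% binomial intervals. Members were mostly called intronic (67.8%) and seldom exonic (7.06%), against 27.9% and 49.95% of the other peaks.

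Peaks classed upstream or exonic had more tags than those in introns or downstream. The median was 136 tags for 429 upstream members, 157 for exonic, 61 for intronic and 47 for downstream members, and the matching medians of the other peaks were 292, 177, 104 and 76.5 tags. Median fold differed less, at 6.97 for upstream, 5.75 for exonic, 6.97 for intronic and 7.03 for downstream members. The downstream peaks of highest fold were at LOC105372374 (20-fold, 48 tags), LOC107985541 (18.96-fold), LOC285804 (16.05-fold), LOC100506634 (14.10-fold) and LOC340357, now LINC03019 (13.68-fold). The LOC100506634 summit lay 158 bp from an end of the coding gene ZNF584, a zinc finger gene, and 1823 bp from its assigned gene. The exonic peaks of highest fold were at LOC150776, now the pseudogene SMPD4BP (26.31-fold), LOC105373759 (25.11-fold, 616 tags), LOC105373244 (24.53-fold), LOC107987175 (22.67-fold) and LOC107984814 (17.74-fold).

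The strongest member peaks were of several kinds. LOC100506022, a long non-coding RNA now named LINC02606, had 121.03-fold enrichment with 502 tags (Poisson interval 459 to 548), and its summit lay 14 bp before its listed start and 59478 bp from the nearest coding gene end. Next came LOC729218, a transcribed pseudogene, at 84.56-fold with 278 tags, and then LOC105378179, at 73.12-fold with 286 tags, 2614 bp inside its gene. LOC100288069 reached 58.95-fold with only 118 tags (interval 97.7 to 141). These 4 summits and that of LOC107986711 (51.66-fold, 210 tags) were the 5 strongest over 10 kb from any coding gene end.

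The rest of the 15 strongest ranged between 34.99-fold and 55.41-fold. LOC107985471, now PEF1-AS1, had 55.41-fold and 801 tags, with the summit 185 bp from the start of PEF1, which encodes a calcium-binding protein. LOC105369547, now CCDC15-DT, had 45.79-fold and 136 tags, 170 bp from CCDC15. LOC101927919 had 42.05-fold and 186 tags, 101 bp from NUS1, a subunit of the enzyme that makes dolichol. LOC107986715 had 37.72-fold and 267 tags, 89 bp from GTPBP10, a mitochondrial ribosome assembly GTPase, and LOC105369609, now PARP11-AS1, had 36.64-fold and 257 tags, 82 bp from PARP11, an ADP-ribosyltransferase. These were the 5 strongest that share a coding gene end. LOC400867, now ETS2-AS1, had 47.37-fold and 130 tags at a summit 30090 bp inside its gene, and LOC107985767 had 39.34-fold and 509 tags, 104 bp before its start. LOC101928414, whose promoter is printed above, had 38.90-fold and 228 tags.

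The peaks with most tags were a different set. LOC107984906 held 1634 tags over 24040 bp at 4.81-fold, LOC105372238 held 1476 at 15.66-fold, LOC101928438 held 1194 at 11.78-fold, LOC102723354 (now LINC02298) held 1180 at 4.82-fold and LINC01003 held 1104 at 4.57-fold. Of these, the LOC101928438 summit lay 168 bp from the nearer end of NR4A3, an orphan nuclear receptor gene induced by cAMP. NR4A3 has a peak of its own in the table. The 5 lowest folds were at LINC01096 (3.00), LINC01194 (3.01), LINC00554 (3.02), LOC390937 (3.03, now the coding gene ERFL) and LOC105373989 (3.04), at or just above the lowest fold of the table, 3. Their tags ranged between 118 at LINC01194 and 476 at LOC105373989. No listed peak has a fold under 3 or a score under 50. Whether a low fold goes with few tags therefore cannot be read from these 5.

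LINC genes known from the literature were often not listed under a LINC name or had middling peaks. They were sought among the members, so a peak listed under another symbol of the same gene could be missed. The list of LINC genes was written with earlier results of these data known. LINC00473, a nuclear RNA known to be induced by cAMP through CREB, had an intronic peak of 7.35-fold with 27 tags (interval 17.8 to 39.3), 16590 bp from the nearest end of its gene and 47401 bp from its listed start. That summit also lay inside the coding gene PDE10A, 47414 bp from its nearest end. The LINC00473 window, far from the summit, holds the core element but no full CRE. Of 24 LINC genes studied in cancers, 8 had a peak listed under a LINC name, with a median of 8.15-fold. Of these 8, 2 reached 10-fold, close to the 23.9% of all listed peaks. The highest were LINC00467 (42.65-fold, 207 tags), studied in colorectal cancer, and LINC00963 (19.88-fold, 474 tags). The other 6 were LINC00673 (8.88-fold, 37 tags), LINC00511 (8.50-fold, 116 tags), LINC00941 (7.81-fold, 491 tags), LINC00261 (6.69-fold, 139 tags), LINC00659 (5.20-fold, 90 tags) and LINC01315 (4.57-fold, 259 tags). LINC00261, an RNA transcribed beside the endoderm factor gene FOXA2, had its summit 113 bp after its start.

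Several genes still called LINC in the table are now known to encode small proteins. Of 7 such names, 5 had a peak, with a median of 7.51-fold. LINC00467 heads this list too. LINC00493, now SMIM26, which encodes a mitochondrial microprotein, had 21.96-fold with 91 tags, 44 bp before its start. LINC00094, now BRD3OS, had 7.51-fold with 339 tags, and LINC00116, now MTLN, which encodes the mitochondrial microprotein mitoregulin, had 6.37-fold with 154 tags. LINC00961, now SPAAR, whose product acts on amino acid sensing at the lysosome, had 3.53-fold with 87 tags. Of 3 abundant or DNA damage related LINC genes, LINC00668 had 8.25-fold with 157 tags and LINC01089 had 4.25-fold with 383 tags. LINC00657 had no peak under that name. Across all members the median was 6.91-fold, and nothing is read from these short lists beyond their values.

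Among all LINC peaks the 10 of highest fold ran between 16.50 and 42.65. Below LINC00467 stood LINC01494 (34.99-fold, 193 tags), LINC01347 (28.95-fold, 71 tags), LINC01232 (26.06-fold, 301 tags) and LINC01431 (24.92-fold, 447 tags). LINC00493, LINC01220 (21.91-fold, 400 tags), LINC00265 (21.80-fold, 279 tags), LINC00963 and LINC00526 (16.50-fold, 338 tags) followed. The LINC01220 summit lay 139 bp before the start of LINC01220. It was 12035 bp from the nearer end of FOS, the immediate early gene that is a classical CRE-driven target. None of these 10 summits had a coding gene end of another gene within 1 kb, and the nearest was that of LINC00963, at 1215 bp.

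Many of the names have changed. Of the names, 1347 were found as a current symbol in RefSeq, 553 by the gene number inside the LOC name and 38 as an older name, 1938 in all (86.1%), and 313 found no match. Of the matched genes, 591 now carry another symbol. The current names comprised 1078 LOC and 416 LINC symbols, 147 antisense (-AS) symbols, 127 divergent transcript (-DT) symbols, 40 other RNA names, 9 host genes, 63 pseudogenes and 58 protein-coding genes. Peaks at genes now called divergent transcripts had the highest medians of these kinds, with 286 tags and 8.04-fold, and 33.1% of them reached 10-fold. The 9 host genes had 187 tags and 7.98-fold, and 4 of them reached 10-fold. Antisense names had 166 tags, 7.42-fold and 25.2%, LINC names 65.5 tags, 6.72-fold and 15.6%, and LOC names 60 tags, 6.88-fold and 15.4%. Pseudogenes had 67 tags, 6.97-fold and 23.8%, and other RNA names 97.5 tags, 7.25-fold and 22.5%. A -DT name is given to a gene that starts next to another gene, and 72.4% of these summits lay within 1 kb of a coding gene end.

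**Figure D3:**
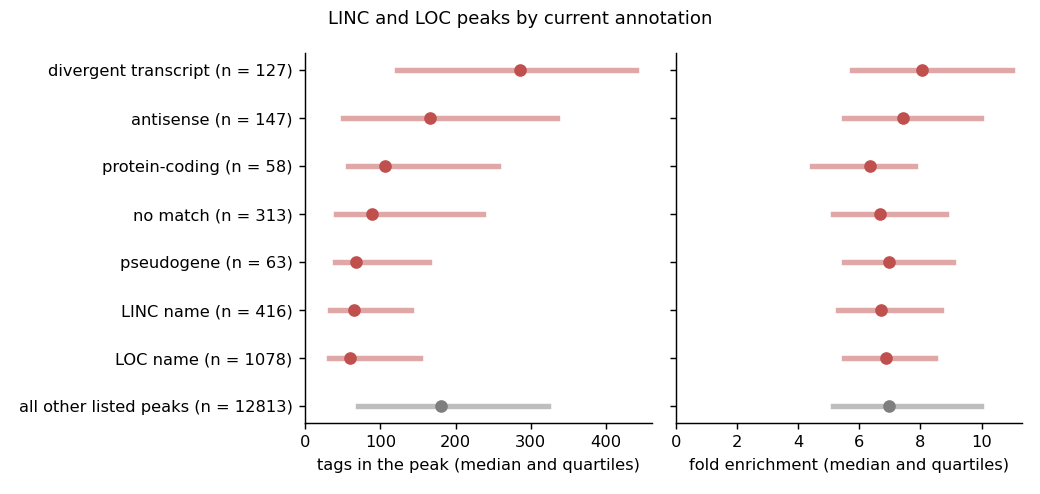
Tags and fold enrichment of LINC and LOC peaks by the kind of current RefSeq name; points are medians and bars run between the quartiles, with the number of peaks beside each name. Divergent transcripts have the highest medians (286 tags, 8.04-fold), and genes now called LINC or LOC are near 60 to 66 tags.

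The 8 strongest peaks now named as divergent transcripts lay beside coding genes of varied function. After CCDC15-DT came LOC101927478, now NUP133-DT, at 29.81-fold with 484 tags, 18 bp from the start of NUP133, which encodes a nuclear pore scaffold protein. LOC101929229, now PINX1-DT, had 26.53-fold with 605 tags, 45 bp from PINX1, an inhibitor of telomerase. LOC102724832, now ANKRD17-DT, had 26.34-fold with 490 tags, and LOC105377623, now USP38-DT, beside a deubiquitinase gene, had 25.27-fold with 454 tags. LOC256880, now H2AZ1-DT, had 24.50-fold with 287 tags, 300 bp from H2AZ1, the gene of a histone H2A variant. LOC101927021, now ZFAND2A-DT, had 24.12-fold with 738 tags, and LOC105372352, now UQCRFS1-DT, had 23.74-fold with 326 tags, 106 bp from the gene of the Rieske subunit of respiratory complex III. The 5 strongest pseudogene peaks were LOC729218, SMPD4BP (LOC150776), PDCD6P1 (LOC728613, 24.08-fold), LOC390877 (16.73-fold) and FAUP4 (LOC101927789, 15.89-fold). Below LINC00493, the strongest of the 58 now protein-coding were LOC105369669 (16.40-fold), LOC105372481 (now ERVK3-1, 15.38-fold), LOC107984449 (15.33-fold) and LOC105378148 (13.70-fold). Reads of pseudogenes can be split with their parent genes, so these values are uncertain.

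A coding gene end near the summit went with many tags. Of the members, 493 (21.9%, interval 20.2 to 23.7%) had an end of a protein-coding gene other than their own within 1 kb of the summit, 12 of the LINC peaks (4.86%) and 481 of the LOC peaks (24.0%). They had a median of 276 tags and 7.45-fold, and 31.0% reached 10-fold. Between 1 and 10 kb, 430 members had 89.5 tags and 6.49-fold. Beyond 10 kb, 1328 members had 47 tags and 6.94-fold, and 14.5% reached 10-fold. Median tags thus fell with distance, whereas the median fold beyond 10 kb was above that between 1 and 10 kb. For scale, 61.9% of the other peaks lay within 1 kb of a coding gene end, but that includes the end of their own gene.

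These 493 summits stood beside 521 distinct coding genes, of which 190 had a row of their own in the table and 331 (63.5%) had none. Over all 19974 coding genes, 39.1% had no row, and 25 of the 331 carry a LOC symbol. Since each peak is given to 1 gene, a coding gene beside a member's peak had to have another peak to be listed. In 308 members every coding gene beside the summit lacked a row, and in 305 of these none of those genes had an end within 1 kb of the summit of a listed peak other than a member's. All 5 of the strongest peaks that share a coding gene end (PEF1, CCDC15, NUS1, GTPBP10 and PARP11) had no row. The same held for NUP133, H2AZ1, UQCRFS1, HNRNPA3 beside LOC105373759, and NUP153, another nuclear pore gene, beside LOC105374952 (now NUP153-AS1, 26.17-fold, 711 tags). CTCF, the gene of the insulator protein, appears through LOC107984813 (10.64-fold, 773 tags), and HSPA9, the gene of the mitochondrial HSP70, through LOC105379193 (11.69-fold, 414 tags). Coding genes beside a member that also had a row included UBR4, next to LOC101927895 (now EMC1-AS1, 32.09-fold, 599 tags), and TP53INP2, KLC1 and NR4A3. The rule by which the authors chose the gene of a peak was not given in the sources used here.

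The position of the summit around the gene's own start could be measured for the 1368 members with a listed start. Where a gene had several listed starts, the one nearest the summit was taken. This was so for 210 of these members and for 3034 of the 10097 other peaks, and its part in the shares below was not tested. Each listed gene has 1 peak, so a further peak at the start would not be seen. It lay within 1 kb of that start for 627 members (45.8%, interval 43.2 to 48.5%) and for 6631 of 10097 other peaks (65.7%, interval 64.7 to 66.6%). Among LINC peaks this share was 48.7% (93 of 191) and among LOC peaks 45.4% (534 of 1177). The 250 bases before the start held 16.7% of member summits and 34.5% of the other peaks' summits. A summit over 1 kb and up to 10 kb after the start was commoner at members, with 28.2%, against 11.1% of the other peaks. Members at their start had far more tags than members away from it, as the next values show.

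**Figure D4:**
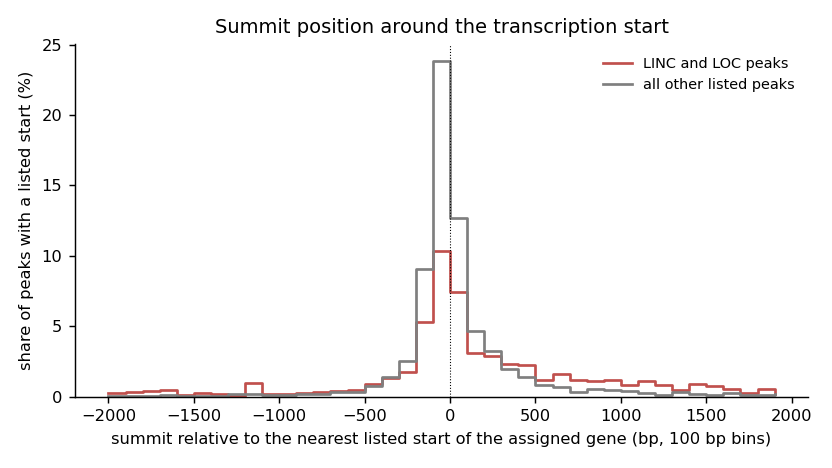
Share of peaks (%) by position of the summit relative to the nearest listed start of the assigned gene (bp, in 100 bp bins; negative values lie before the start), for 1368 LINC and LOC peaks and 10097 other peaks with a listed start. Both lines peak just before the start, and the line for LINC and LOC genes is lower there, with 16.7% of member summits and 34.5% of the others in the 250 bases before it.

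Of the 627 members at their own start, 225 (35.9%, interval 32.1 to 39.8%) also had a coding gene start on the opposite strand within 1 kb, against 809 of 6631 other peaks at their start (12.2%). In 172 of the 225 the pair ran away from each other, with a median of 162.5 bp between the starts. The 225 had a median of 321 tags and 8.08-fold, and 37.3% reached 10-fold. The other 402 members at their start had 101 tags and 6.95-fold, and 19.7% reached 10-fold. Only coding starts with a listed promoter were counted, and 37 of these 402 (9.20%) had a coding gene end within 1 kb of the summit. The 741 members with a listed start but a summit elsewhere had 48 tags and 6.84-fold, and 13.2% reached 10-fold. Other peaks at their own start had 246 tags and 7.81-fold, with 34.4% at 10-fold, values between those of the members with and without an opposite coding start.

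Within the shared promoters the summit did not sit on one side only. It was nearer the start of the LINC or LOC gene in 141 of the 225 and nearer the coding start in 84, with median distances of 125 bp to the non-coding start and 143 bp to the coding start. These counts rest on the authors' choice of 1 gene for each peak. A start peak far from coding gene ends still differed in tags from a peak elsewhere. Over 10 kb from any coding gene end, 266 members at their own start had 75.5 tags and 6.84-fold, and 18.0% reached 10-fold, whereas 548 not at their start had 41 tags and 6.97-fold, and 12.2% reached 10-fold. The fold medians were thus close while the tags differed. Inside another gene that is protein-coding lay 26 of the 266 summits (9.77%) and 55 of the 548 (10.04%), so not all of these loci stand alone.

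Promoter windows were searched on both strands for 5 motifs. These were the full CRE TGACGTCA, its core TGACG, the CCAAT box CCAAT, the GC box GGGCGG and the AP-1-like pattern TGANTCA. N stands for any base, so this last pattern is wider than the AP-1 element itself. Each full CRE also holds the core on both strands, so every window with a CRE counts for the core as well. A match describes the letters and is not by itself a binding site. Over all windows found, wherever the summit lay, the full CRE was in 1.68% of 1368 member windows and 3.22% of 10097 windows of the other peaks. There the core was in 25.8% of member windows and 33.5% of those of the other peaks. Members were thus lower on both over all windows, and the shares were closer where the summit lay in the window. In 298 members and 4328 other peaks the summit lay inside the window. The full CRE was present in 15 of the 298 members (5.03%, interval 2.84 to 8.17%) and in 5.29% of the other 4328, against 1.85% of all 35116 promoters in the table and 1.15% of the 12917 promoters of long non-coding RNAs. The core was present in 122 of the members (40.9%) and 44.0% of the others, against 24.6% of all promoters and 18.8% of long non-coding RNA promoters.

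The GC box was in 77.9% of these member windows and 81.8% of those of the other peaks, and in 45.0% of all promoters. The CCAAT box was in 29.2% of the member windows, 37.9% of those of the other peaks and 34.6% of all promoters. The AP-1-like pattern was in 4.36% of the member windows, 3.47% of those of the other peaks and 7.71% of all promoters. Their median GC content was 68.3% at members and 68% at the other peaks, with 29.5 and 30 CpG. Among the 741 members with a summit over 1 kb from their start, by contrast, 0.810% of windows held the CRE, 19.7% the core and 26.2% the GC box, with 53.7% GC and 6 CpG. Base composition thus moved together with the motif shares, and its part in them was not tested.

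The CRE, its core and the CCAAT box were commoner in windows of the highest quartile of fold enrichment, whereas the GC box showed no such rise across the quartiles. Windows that hold the summit were divided at the quartiles of fold over all members (5.38, 6.91 and 8.92), which gave 59, 59, 71 and 109 members. From the lowest to the highest quartile the core was in 27.1%, 20.3%, 36.6% and 62.4% of member windows, and in 21.5%, 27.8%, 39.1% and 60.1% of those of the other peaks. The full CRE was in 0%, 0%, 1.41% and 12.8% of member windows, and in 0.736%, 0.585%, 1.18% and 10.2% of those of the other peaks. With 59 windows, 0 found allows a share of up to 6.06%. The CCAAT box was in 20.3%, 18.6%, 31.0% and 38.5% of member windows, and in 24.8%, 31.4%, 40.2% and 44.5% of those of the other peaks. The GC box was in 81.4%, 71.2%, 80.3% and 78.0% of member windows, and in 84.3%, 85.1%, 84.0% and 79.0% of those of the other peaks. Of 27 members of at least 20-fold with the summit in the window, 26 held the core (96.3%, interval 81.0 to 99.9%). The core was in 352 of 460 such other peaks (76.5%). The full CRE was in 7 of the 27 (25.9%, interval 11.1 to 46.3%) and in 19.6% of the 460, a share inside that interval. The CCAAT box was in 16 of these 27 (59.3%, interval 38.8 to 77.6%), against 41.3% of the 460. The GC box was in 24 of these 27 (88.89%, interval 70.84 to 97.65%), against 70.43% of the 460. The 1 member of these 27 without the core was LOC101928414, whose window is printed above.

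**Figure D5:**
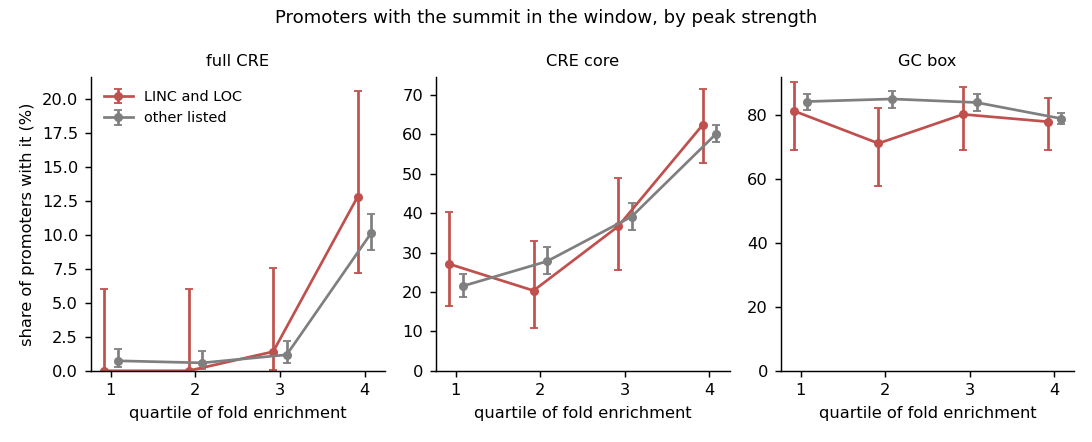
Share of promoters (%) that hold a full CRE, a CRE core or a GC box, for peaks with the summit in the promoter window, by quartile of fold enrichment (1 lowest, 4 highest); points are shares and bars exact 95% binomial intervals, for LINC and LOC peaks and for other peaks. The CRE core is in 62.4% of member windows in the highest quartile and 27.1% in the lowest, and the GC box stays between 71.2% and 81.4%.

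Where a CRE was present the summit was close to it. Across the 15 windows the median distance from summit to CRE centre was 10.5 bp, and 13 of 15 (86.7%) lay within 50 bp, against a median of 16.5 bp and 76.9% in 229 windows of the other peaks. The core lay a median of 38.5 bp from the summit in 122 member windows, and the GC box 35.5 bp. In the sequences printed above, the distance was 0.5 bp for LOC100506885, LOC101927478 and LOC105372599, 9.5 bp for LOC100288069 and 22.5 bp for LOC100506022. It was 30.5 bp for LOC105375216, which like LOC100288069 has 2 full elements, 94.5 bp for LINC00265 and 118.5 bp for LOC105372692. It was 2.5 bp for LOC101929285 (17.79-fold), 6.5 bp for LOC105370688, and 12.5 bp for LOC105374889 and LOC107987126 (11.07-fold). The farthest of these 12 CREs, that of LOC105372692, went with 34.01-fold, and the nearest with 16.95-fold, 29.81-fold and 20.39-fold.

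Several of these CRE windows are shared with a coding gene on the opposite strand. LOC105375216 (29.63-fold, 960 tags) has its summit 283 bp from the start of MTURN, a neural progenitor differentiation regulator, and LOC105372599 (20.39-fold, 965 tags) 57 bp from TP53INP2, an autophagy gene. LOC105374889 (15.11-fold, 578 tags) stands 69 bp from TUBB2A, a beta-tubulin gene, and LOC105370688 (13.90-fold, 804 tags) 76 bp from KLC1, a kinesin light chain gene. LOC100506022, LOC100288069, LINC00265 and LOC100506885 have no coding gene end within 10 kb. Where the summit lay in the window and an opposite coding start was within 1 kb, 48.3% of 118 member windows held the core and 89.8% the GC box. Without one, 36.1% of 180 windows held the core and 70% the GC box, with medians of 35 CpG in the shared and 24 in the unshared windows.

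Across the chromosomes, members made up between 7.83% of the listed peaks on chromosome 19 (81 peaks, interval 6.26 to 9.63%) and 25.4% on chromosome 13 (81 peaks, interval 20.7 to 30.5%). Chromosome 21, at 22.9%, and chromosome 18, at 20.5%, were also high, and the X chromosome was low at 8.42%. On chromosome 19 the members had a median of 8.32-fold and 109 tags, against 6.91-fold and 72 tags over all members. Of 73 pairs of listed peaks within 500 bp of each other, 22 included a member and 2 consisted of members alone, so few member peaks repeat a neighbouring peak.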

How the data were processed

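The deposited table of the ATF1 ChIP library was the only file used. The submitters' processing notes name the hg38 build and, as tools, CASAVA, Bowtie2 and bedtools. The peak caller, its control and the annotation that assigned genes were not given in the sources used here. The deposited tags, per the file headers, are whole-number counts per peak, the deposited fold enrichment is a ratio whose background is not specified (lowest value 3), and the deposited score (lowest value 50) has no stated basis. Per the file headers, positions, peak lengths and distances between them are in bp. Each listed gene has 1 peak, and peaks over 2 kb from a gene are not part of the table. The number of reads in the library is unknown.

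Members were matched to the RefSeq table of GRCh38.p14 by symbol, gene number or older name. Promoter windows were searched with Python 3.11.15, pandas 2.3.3 and numpy 2.4.6; exact Clopper-Pearson and Poisson intervals came from scipy 1.17.1 and figures from matplotlib 3.10.9. The motif search and intervals were checked on simulated data. The members and gene lists were chosen with earlier results of these data known. Members named are the 15 of highest fold, the 5 of highest fold in each class, beyond 10 kb of a coding gene end and within 1 kb of one, the 5 with most tags, the 5 of lowest fold and all listed members of the LINC lists. The 10 strongest LINC peaks, the 8 divergent transcripts, the 5 pseudogenes, the genes now protein-coding, those with a CRE and other neighbours of coding genes were named after their values were seen. Alternatives tried were stricter fold and score limits, LINC or LOC alone, only names that remain current non-coding symbols, and other distances.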

Additional observations from a re-analysis of the deposited data

How the results depend on the processing

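With 1 library there is no replicate to leave out, and the depth of the library is unknown. No paired analysis was possible because the 1 ChIP library has no replicate and no test was made between groups. Of 61 alternative values, 21 stayed within the interval of the value in the report and 40 moved out of it; for each the cause was not tested beyond the smaller or different set of peaks it uses. Several distances were chosen after seeing the data: the window itself for motifs, and 500 bp and 2 kb around or between starts.

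Peaks of at least 5-fold alone gave 5.97% in exons, 22.6% at 10-fold, a median of 7.53-fold and 57 tags. Peaks at or above the median score gave 27.1% upstream, 8.84% exonic, 60.1% intronic and 4.01% downstream, 47.6% with a coding gene end within 1 kb, 42.5% at 10-fold, and medians of 8.79-fold and 266.5 tags; there the share at 10-fold was 42.9% of the other peaks. LINC peaks alone gave 25.1% upstream, 0.405% exonic, 4.86% with a coding gene end, 16.2% at 10-fold and a median of 6.80-fold, and LOC peaks alone 24.0% with a coding gene end. Names that remain current non-coding symbols gave 3.86% exonic, 70.3% intronic, 15.9% with a coding gene end, 15.3% at 10-fold and a median of 61.5 tags. Members with no coding gene end within 1 kb had a median of 54 tags, against 72 at such other peaks.

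The share with a coding gene end was 18.7% within 500 bp of the summit and 31.9% within 5 kb of it. It was 24.6% within 1 kb of any part of the peak. At 20-fold in place of 10-fold, 3.07% of members passed. Motif shares follow for all matched windows, those with the summit within 500 bp of the window and those with it inside. The CRE was in 1.68%, 3.14% and 5.03%, and the core in 25.8%, 34.0% and 40.9%. The GC box was in 41.8%, 63.0% and 77.9%, and the AP-1-like pattern in 7.60%, 4.81% and 4.36%. The share of summits at the gene's own start was 37.8% within 500 bp and 55.9% within 2 kb, and that of opposite coding starts was 31.6% within 500 bp.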
